A study of Rattus norvegicus with 4 samples.

Results

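The genes described here code for protein kinases, protein phosphatases and their regulatory subunits that carry signals inside cells. They were taken as all probe sets, other than controls, that name 1 gene whose symbol begins with Prk, Camk, Mapk, Map2k, Map3k, Ppp, Cdk, Pak, Pnck or Gsk3. This gave 54 probe sets of 27 genes, out of 1263 probe sets (720 named genes) other than controls, and no symbol beginning with Cdk was among them. Total RNA of rat origin, labelled as brain, adrenal medulla, was hybridised to 4 single-channel oligonucleotide arrays. The groups were undigested at day 1, digested at day 1, undigested at day 7 and digested at day 7, with 1 array each. The labels do not say what was digested, from what animals or strain the samples came or what the study asked.

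Kinases add phosphate groups to proteins and phosphatases remove them. Cyclic AMP acts through protein kinase A (PKA), calcium acts through calmodulin on the CaM kinases and on the phosphatase calcineurin, and diacylglycerol with calcium acts on conventional forms of protein kinase C (PKC). Growth factors and stress act through cascades in which a MAP kinase kinase kinase activates a MAP kinase kinase, which activates a MAP kinase. In chromaffin cells, the catecholamine-releasing cells of the adrenal medulla, several of these kinases phosphorylate tyrosine hydroxylase and proteins of exocytosis.

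Values are linear signals as deposited, multiplied so that each array had the same median signal, with a floor at the 20th percentile (a signal of 51.9). A probe set was analysed when its mean log2 value reached the median of all, a signal of 229, which left 632 probe sets. Of the members, 41 probe sets of 23 genes passed, and 0 of these 41 had a value at the floor on any array. The other 13 probe sets were too dim: 3 lay at the floor on all 4 arrays, 4 on 1 to 3 arrays and 6 on none. Signals of different probe sets depend on their probes and do not rank genes by expression. They are set side by side only to order probe sets by brightness and in the sums of markers. With 1 array per group, no difference can be set against a spread between replicates, so sizes are given without a test and a probe set was counted when it differed at least 2-fold. An additive limma fit of digestion and day over the 4 arrays stands beside them. The only other yardstick was how far probe sets of the same gene disagreed in a log2 difference, as an SD pooled over 125 genes. This SD compares probe sets read on the same arrays, so it holds no variation between replicate samples. For digestion it was 0.32 at day 1 and 0.52 at day 7; for the days it was 0.52 without and 0.41 with digestion.

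Of the 10 chromaffin genes on the marker list 5 had a probe set, 8 probe sets in all. Those of Th, Ddc and Dbh were analysed, as was 1 of 2 of Penk, while the other of Penk and both of Slc18a2, the vesicular monoamine transporter, were dim and at the floor on 1 or 2 arrays. Their summed signal was 280752 undigested and 304086 digested at day 1, and 386335 undigested and 252587 digested at day 7, of which Th gave 64.9% to 79.1%. Such a sum follows its brightest probe set: between the days in the digested samples it was lower at day 7, while the median log2 difference of the 5 analysed probe sets was 0.27. Of the 12 neuronal markers 8 had a probe set, with sums of 279420, 305377, 198275 and 183684 in the same order, 56% to 67.8% of it from Snap25. Of 6 astrocyte markers 4 had one, with sums of 11601, 12005, 5716 and 6878, 82% to 94.4% of it from Glul. Of 8 markers of myelinating cells 4 had one, with sums of 3082, 3132, 4273 and 2961, 52.4% to 62.5% of it from Cnp. The 1 macrophage gene with a probe set, Itgam, ran from 7.93 to 123, and the 1 fibroblast gene, Vim, lay at the floor on all 4 arrays; 0 of the listed genes of adrenal cortex or endothelium had one. Beta-actin was read at both ends of its transcript, and its 3′ signal divided by its 5′ signal was 2.66 on the undigested day 7 array and from 1.35 to 1.48 on the others. Hybridisation controls read by 9 probe sets stood at a median log2 of -1.35 on the digested day 7 array against the other arrays. In such bulk samples, fewer cells of a type and less RNA per cell cannot be told apart.

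The MAP kinase cascade was read by 21 probe sets of 8 genes, of which 20 were analysed. Past 2-fold were 0 for digestion at day 1, 0 at day 7, 0 for day in undigested and 1 for day in digested samples. Of all 632, 3.48%, 11.4%, 13.3% and 8.07% passed in the same order. Among the 316 brightest of the 632 these shares were 0%, 3.8%, 9.49% and 3.48%. Values are given here and below for undigested and digested samples at day 1, then undigested and digested samples at day 7. Map3k1, a kinase at the top of the cascade to the JNK kinases, had signals of 17358, 18170, 15646 and 15952 by its brighter probe set. It was lowest on the day 7 arrays, and its other probe set, at 6745, 6719, 5210 and 5874, had the same order of days. Map2k1, the gene of the ERK-activating kinase MEK1, had signals of 8730, 9501, 11551 and 11463 by its brightest probe set. Map2k2, which codes for its close relative MEK2, had signals of 10925, 11516, 11803 and 14586 by its brightest. All 3 probe sets of Map2k2 were higher in the digested than in the undigested day 7 sample, by log2 differences of 0.25 to 0.42. The dimmest probe set of Map2k1 ran from 268 to 134 and fell outside the analysed set.

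Among the MAP kinases themselves, Mapk14, which codes for the alpha form of the stress-activated p38 kinases, was read by 6 probe sets. The brightest gave 12679, 12954, 18103 and 18663. All 6 probe sets were higher at day 7 in the digested samples, with log2 differences from 0.18 to 1.37. The largest of these came from the dimmest probe set, at 490, 352, 918 and 907, which was 2.58-fold higher at day 7 in the digested samples. Its log2 difference between the days was 0.91 in the undigested samples. For digestion at day 7 the 6 probe sets of Mapk14 did not point one way, with 4 above and 2 below 0 and a range from -0.60 to 0.67. Mapk12, the gene of the gamma form of p38, had signals of 3027, 3164, 3058 and 3578, highest in the digested day 7 sample.

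Mapk9, which codes for the kinase JNK2, had signals of 3311, 3471, 2904 and 5116 by its brightest probe set, 1396, 1836, 2544 and 2688 by the next and 999, 1120, 832 and 1164 by the dimmest. The digested day 7 sample was the highest on all 3. Mapk6, the gene of the atypical kinase ERK3, had 8875, 10076, 13076 and 13423 by its brighter probe set and 3065, 4019, 3851 and 5793 by the other. On both, the undigested day 1 sample was the lowest and the digested day 7 sample the highest. Mapk8ip2, which codes for a scaffold that binds kinases of the JNK cascade, had signals of 16310, 18676, 30575 and 27116. The log2 day differences of Mapk8ip2 were 0.91 undigested and 0.54 digested.

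**Figure D1:**
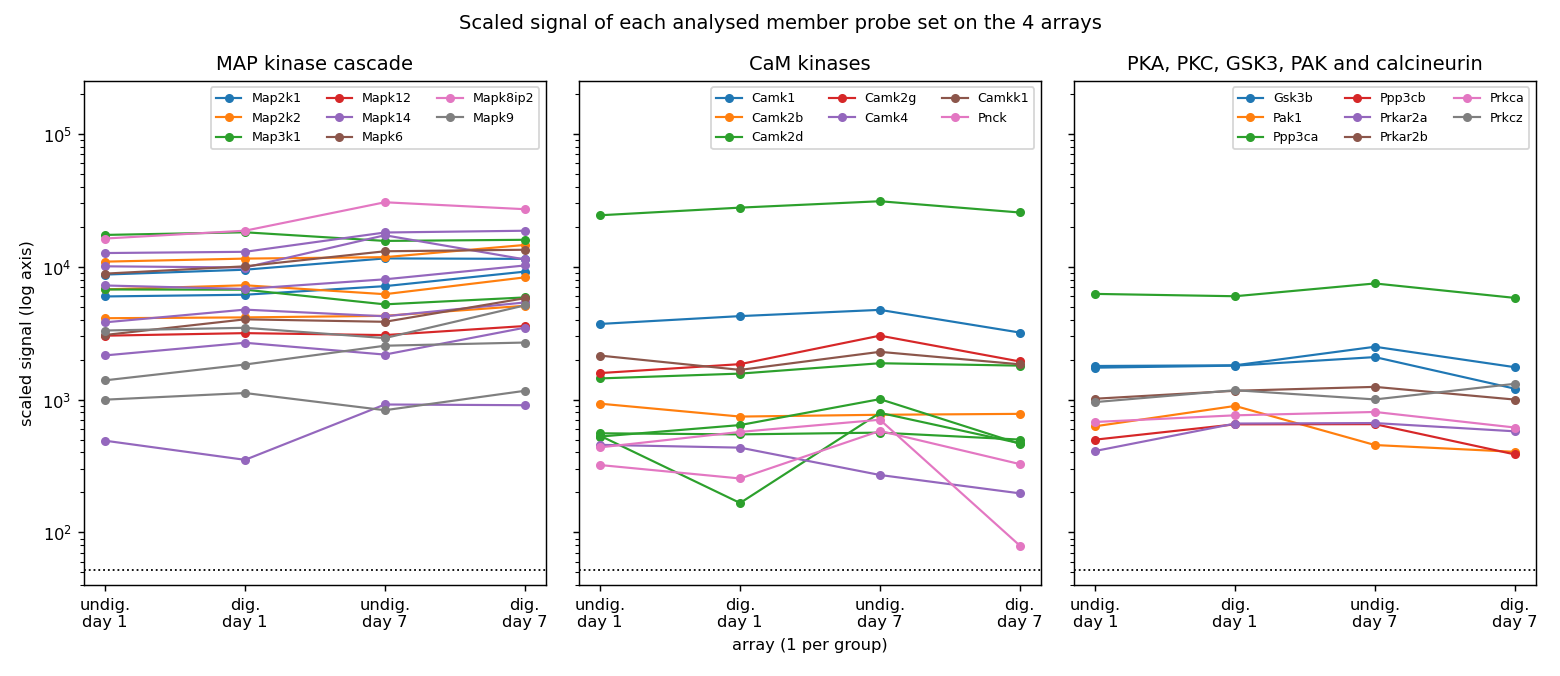
Scaled signal on a log axis of each analysed probe set on the 4 arrays, 1 line per probe set coloured by gene, with the floor of 51.9 dotted. Lines of the MAP kinase cascade mostly end at or above their start, while 1 probe set of Pnck drops to 79.7 on the digested day 7 array.

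The CaM kinases were read by 17 probe sets of 8 genes, of which 12 probe sets of 7 genes were analysed. Camkk1, the kinase that activates CaM kinases I and IV, had signals of 2143, 1674, 2288 and 1843, lower in the digested sample at both days. Camk1, one of its targets, had 3711, 4250, 4735 and 3196. Camk4, a kinase of the nucleus that phosphorylates the transcription factor CREB, had 456, 435, 271 and 197 by its analysed probe set. It was 2.21-fold lower at day 7 in the digested samples, and its log2 day difference in the undigested samples was -0.75. The dim probe set of Camk4 gave 183, 166, 70.3 and 131, also lower at day 7 in both states, past 2-fold in the undigested samples (log2 -1.38), but with the digested day 7 sample above the undigested one.

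Pnck, a calmodulin-dependent kinase related to CaM kinase I, had the largest differences of all members. Its probe set with the identifier D86556_i_at had signals of 437, 571, 705 and 79.7. The digested day 7 sample was 8.85-fold below the undigested one and 7.17-fold below the digested day 1 sample. That signal is under 104, which is 2 times the floor, so the size of both folds is imprecise: with the floor at the 40th percentile the log2 differences were -2.12 and -1.81 in place of -3.15 and -2.84. The other analysed probe set of Pnck had 321, 255, 581 and 327, highest in the undigested day 7 sample, and its log2 differences for the same comparisons were -0.83 and 0.36. The dimmest probe set, at 115, 68.4, 132 and 106, gave -0.32 and 0.63. All 3 probe sets were thus lower in the digested than in the undigested day 7 sample, and 1 of 3 was lower at day 7 in the digested samples.

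CaM kinase II, a multi-subunit enzyme abundant at synapses, was read through 4 genes. Camk2d, of its delta chain, had 5 analysed probe sets, and the brightest gave 24407, 27859, 31124 and 25605. The probe set rc_AA925495_at gave 534, 167, 795 and 469. It was 3.21-fold lower in the digested than in the undigested sample at day 1 and 2.82-fold higher at day 7 than at day 1 in the digested samples, both through the digested day 1 value. The log2 differences of the other 4 probe sets at day 1 lay between -0.03 and 0.29. The probe set rc_AI009268_at gave 527, 643, 1008 and 465 and was 2.17-fold lower in the digested day 7 sample than in the undigested one. In the values as deposited this log2 difference was -0.97, short of 2-fold. At day 7 all 5 probe sets of Camk2d were lower in the digested sample, from -1.12 to -0.06. Camk2g, of the gamma chain, had 1583, 1848, 3029 and 1936, with the undigested day 7 sample the highest. Camk2b, of the beta chain, had 931, 745, 769 and 781 by its bright probe set and lay at the floor on all arrays by the other. Camk2a, of the alpha chain known from forebrain neurons, had no signal above 57.9 on either of its probe sets.

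Of the other kinases, PKA was read through its type II regulatory subunits, which hold the catalytic subunits inactive until cyclic AMP binds. Prkar2a had signals of 410, 660, 666 and 577, lowest in the undigested day 1 sample. Prkar2b had 1015, 1165, 1246 and 1000. Prkca, a conventional PKC, had 678, 761, 807 and 616. Prkcz, an atypical PKC that needs neither calcium nor diacylglycerol, had 958, 1177, 1003 and 1314 by its analysed probe set. The dim probe set of Prkcz gave 212, 447, 78.8 and 213 and passed 2-fold in all 4 comparisons, higher with digestion at both days and lower at day 7 in both states. Its undigested day 7 signal of 78.8 is under 104, which is 2 times the floor, so the folds it enters are imprecise. The bright one had log2 differences of 0.30 and 0.39 for digestion and 0.07 and 0.16 for day, so both probe sets pointed the same way for digestion and opposite ways for day. In the values as deposited the bright one turned to -0.17 for day in the undigested samples. Prkcb, another conventional PKC, had 3 dim probe sets. The brightest of these gave 113, 58.2, 19.7 and 213, with the undigested day 7 value under the floor, and another lay at the floor on all 4 arrays. Its log2 day difference in the digested samples was 1.87, from a signal near the floor.

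Gsk3b, of a kinase of glycogen and Wnt signalling that is inhibited by phosphorylation, had signals of 1790, 1812, 2499 and 1753 by one probe set and 1739, 1801, 2089 and 1208 by the other. Both were highest in the undigested and lowest in the digested day 7 sample. Pak1, a kinase activated by the small GTPases Rac and Cdc42, had 630, 896, 455 and 404 by its analysed probe set. This probe set was 2.22-fold lower at day 7 than at day 1 in the digested samples. Its log2 day difference in the undigested samples was -0.47. The dim probe set of Pak1, at 101, 144, 179 and 75.7, was lower at day 7 in the digested samples and higher in the undigested samples, and passed 2-fold for digestion at day 7 (log2 -1.24).

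Among the phosphatases, calcineurin was read through both of its main catalytic subunits. Ppp3ca had signals of 6245, 5997, 7484 and 5827 and Ppp3cb 499, 651, 653 and 387. For both, the digested day 7 sample was the lowest of the 4. Of the regulatory subunits of protein phosphatase 1, neither had an analysed probe set. Ppp1r9a, which codes for neurabin, a scaffold of the actin cytoskeleton in neurons, had 94.3, 188, 208 and 245, lowest in the undigested day 1 sample, with a log2 day difference of 1.14 in the undigested samples. Ppp1r3b, which targets the phosphatase to glycogen, was under the floor on 3 arrays and at 116 in the digested day 7 sample.

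Between the digested and the undigested sample at day 1, 1 of the 41 member probe sets passed 2-fold (2.44%), the low one of Camk2d, against 3.48% of all 632. The median log2 difference was 0.10 for the members and 0.12 for all analysed probe sets. Above 0 were 30 of the 41 members and 71.2% of all. These signs depend on the scaling. The values as deposited put 18 of 41 members and 48.7% of all above 0, and quantile normalisation 16 of 41 and 45.9%.

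At day 7 the MAP kinase cascade and the other members lay on different sides. In the cascade 16 of 20 probe sets were higher in the digested sample, with a median log2 difference of 0.24. Of the 21 analysed probe sets of the other families, 19 were lower, with a median of -0.39. Above 0 were 44.5% and below 0 55.5% of all 632 probe sets, whose median was -0.05. By gene, the mean over the analysed probe sets was above 0 for 7 of 8 cascade genes, the exception being Mapk8ip2 at -0.17. It was below 0 for 13 of the 15 other genes, the exceptions being Prkcz at 0.39 and Camk2b at 0.02. The families were set by role, but the division into the cascade and all others was made after the values were seen.

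Within the other families, 11 of 12 CaM kinase probe sets were lower in the digested day 7 sample, with a median of -0.51. In the values as deposited 10 of 12 were. Both probe sets of Gsk3b were lower, at -0.51 and -0.79, as were those of calcineurin, at -0.36 for Ppp3ca and -0.76 for Ppp3cb, and those of PKA, at -0.21 for Prkar2a and -0.32 for Prkar2b. Prkca and Prkcz lay apart, at -0.39 and 0.39. In size, 13 of these 21 differences and 16 of the 20 in the cascade were smaller than the SD of 0.52 between probe sets of a gene. Past 2-fold were 2 of 41 members (4.88%), those of Pnck and Camk2d, against 11.4% of all 632. The values as deposited put 18 of 20 cascade probe sets and 3 of 21 others above 0, against 56.6% of all. Quantile normalisation put 18 and 2 above 0, against 47.3%, and cyclic loess 17 and 2, against 46.5%.

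**Figure D2:**
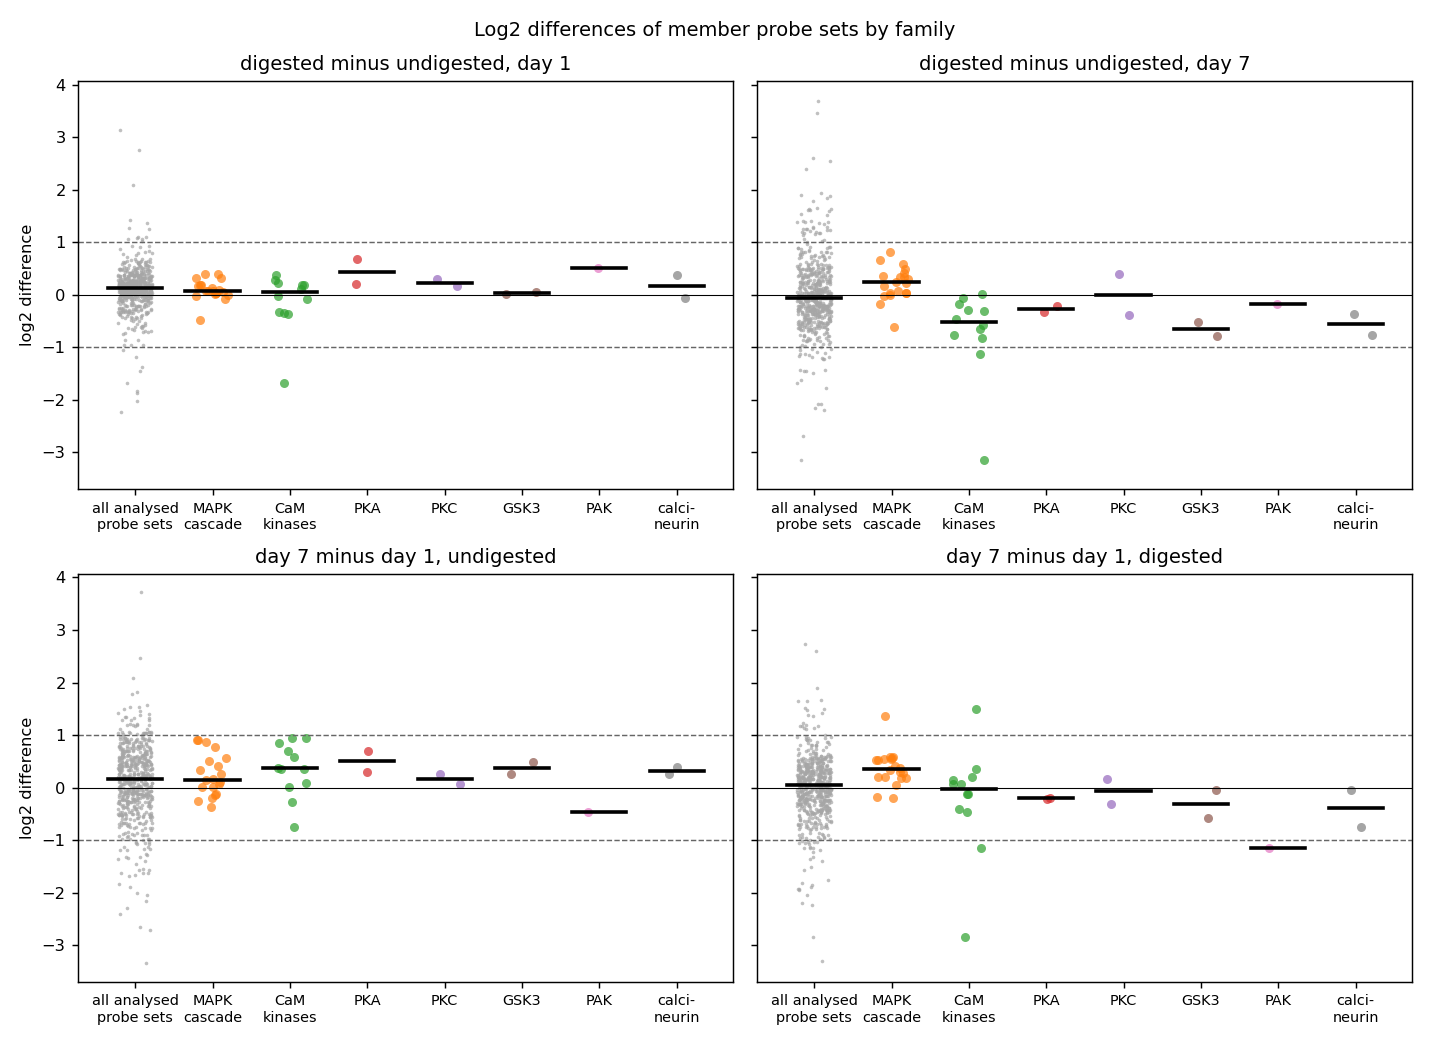
Log2 difference of each analysed probe set (1 point each) by family in the 4 comparisons, beside all 632 analysed probe sets in grey; black bars are medians and dashed lines mark 2-fold. For digestion at day 7 the cascade has a median of 0.24 and the CaM kinases one of -0.51.

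The cascade probe sets were brighter than those of the other members: of the 4 bands of 158 analysed probe sets by mean signal, the brightest held 11 of the cascade and 2 of the others, and the dimmest 0 and 5. The counts by band below split the same day 7 values and are no separate support for the division. In the band from 1508 to 4766, 7 of 7 cascade probe sets were higher in the digested day 7 sample and 0 of 6 other members were, against 49% of 145 probe sets that are no members. In the brightest band 8 of 11 cascade probe sets and 0 of 2 other members were higher, against 32.4% of 145. In the band from 540.0 to 1508 these counts were 1 of 2 and 2 of 8, against 48% of 148, and in the dimmest 0 of 5 other members were higher, against 48.4% of 153. The chromaffin markers had a median log2 difference of -0.50 over 5 probe sets in this comparison, those of myelinating cells -0.65 over 3, neuronal markers -0.09 over 12 and astrocyte markers 0.37 over 4. Within the astrocyte list, Glul gave 0.31, 1.17 and 0.43 and Slc1a3 -0.29. For myelinating cells, Cnp gave -0.65 and Mag 0.31 and -0.99. Neuronal markers ran from -0.87 for Nefm to 0.58 for Gap43. The part of brightness, of these cell types, of the beta-actin ratio of 2.66 and of the low hybridisation controls in the day 7 difference was not tested.

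**Figure D3:**
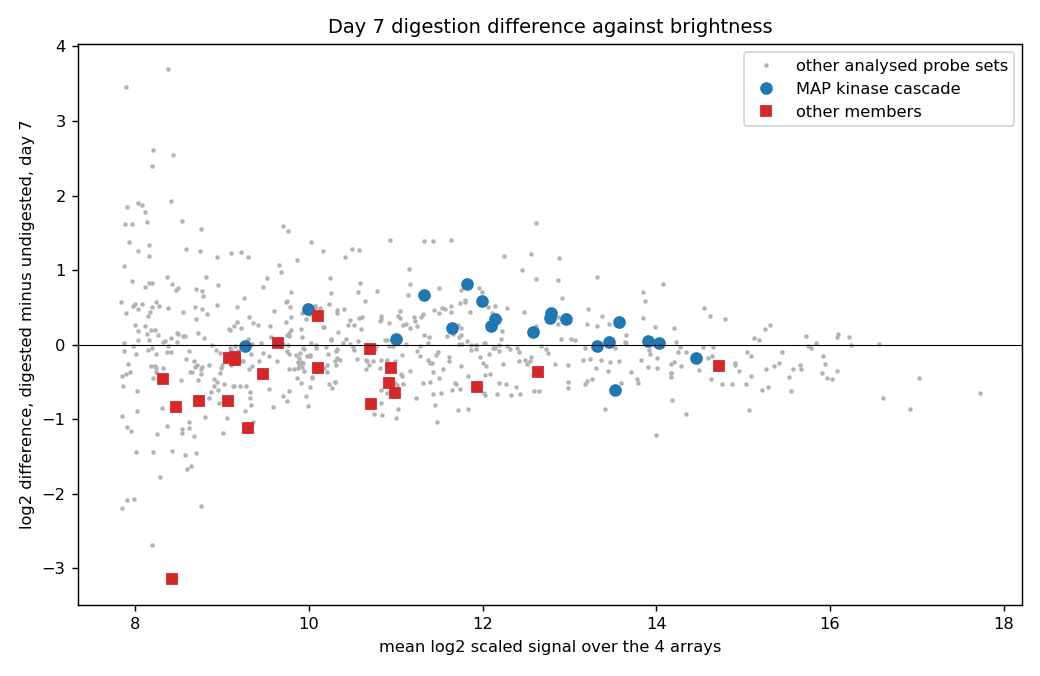
Log2 difference between the digested and the undigested day 7 sample against the mean log2 signal of each analysed probe set, with the MAP kinase cascade as circles, other members as squares and all other probe sets as grey points. Circles lie mostly to the right of the squares, a division made after the values were seen. Between signals of 1508 and 4766, 7 of 7 circles and 0 of 6 squares lie above 0, against 49% of 145 grey points. Some of these circles read the same gene, and the other bands hold few of one kind or the other.

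Between the days in the undigested samples, none of the 41 members (0%) passed 2-fold, against 13.3% of all 632. Several lay just short of it, with log2 sizes of up to 0.94, for Camk2g and for 1 probe set of Camk2d. At 1.5-fold 10 of 41 passed (24.4%), against 37.2% of all. Higher at day 7 were 33 of 41, against 59.7% of all, with a median of 0.26 against 0.17. The median was 0.15 for the cascade and 0.35 for the other members. In the values as deposited 24 of 41 were higher, against 45.1% of all. The cascade median turned to -0.08 and that of all probe sets to -0.07. This comparison shares the undigested day 7 array with the digestion difference at day 7.

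In the digested samples, 5 of 41 member probe sets passed 2-fold between the days (12.2%), against 8.07% of all 632. Higher at day 7 were 1 probe set each of Camk2d and Mapk14, and lower were 1 each of Pnck, Camk4 and Pak1. All 5 lay among the 316 dimmer of the 632 analysed probe sets, which held 15 members and where 12.7% of all passed. In the cascade 18 of 20 were higher at day 7, the exceptions being both probe sets of Map3k1 at -0.19, and the median was 0.36. Of the other members 14 of 21 were lower, with a median of -0.13, while 53.2% of all probe sets were higher and their median was 0.04. Under the other scalings 17 or 18 of the 20 were above 0, against 51.4% to 55.5% of all. In size, 11 of the 20 cascade differences and 14 of the 21 others were smaller than the SD of 0.41 between probe sets of a gene. Pooled over 9 member genes alone, that SD was 0.70. The digested day 7 array enters this comparison and that of digestion at day 7.

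None of the 41 analysed member probe sets passed 2-fold in the same direction for digestion at both days, against 0.158% of all 632. None did for day in both digestion states, against 1.74%. Below the brightness limit, the dim probe set of Prkcz did both. Without that limit, 3.48% of all 1263 probe sets did so for digestion and 3.64% for day. Of the 26 members among the 316 brightest probe sets, 0 passed 2-fold in any of the 4 comparisons. Of all 316, 0% and 3.8% passed for digestion at day 1 and day 7. For day, 9.49% passed in the undigested and 3.48% in the digested samples. The additive limma fit gave 0 members an adjusted p under 0.05 for digestion, against 0% of all, and 0 for day, against 0.158%. At an unadjusted p under 0.05 it gave 1 member for digestion, against 6.65% of all, and 6 for day, against 14.4%. The lowest adjusted p of a member was 0.677 for digestion, for the probe set of Camk2d that was low in the digested day 1 sample, and 0.198 for day, for the dimmest of the 6 probe sets of Mapk14. The error of this fit comes from how far the digestion difference at day 7 departs from that at day 1, on 1 degree of freedom, moderated by limma towards a variance shared by all 632 probe sets (a prior SD of 0.32 on 7.76 degrees of freedom). Neither is a replicate error.

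**Figure D4:**
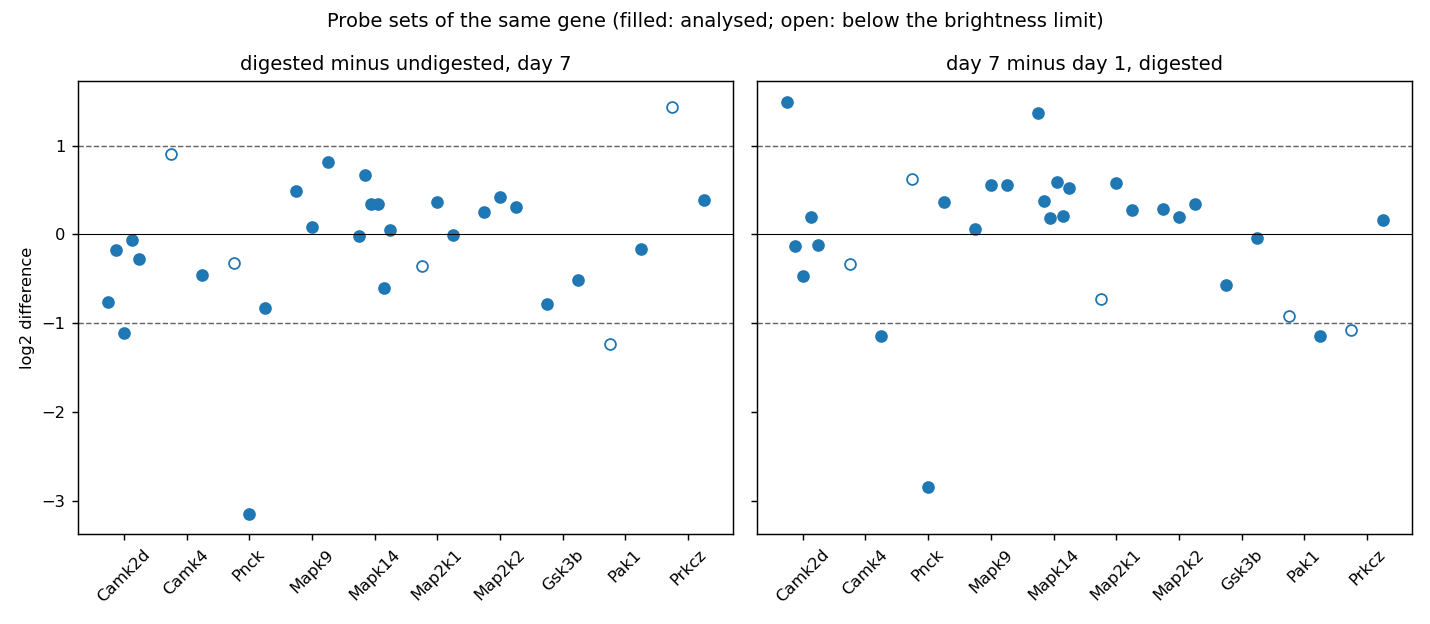
Log2 differences of the separate probe sets of 10 genes for digestion at day 7 and for day in the digested samples, filled where analysed and open where too dim. The 5 analysed probe sets of Camk2d span -1.12 to -0.06 on the left, and those of Pnck reach -3.15.

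Genes that work with these kinases were taken from a list of 114 regulators, neighbours and targets. Of these 25 had a probe set, and 32 probe sets of 22 genes were analysed; 3 listed genes (Gap43, Map2 and Syn1) are also neuronal markers. At day 1, 0 of 32 passed 2-fold, against 3.48% of all 632. At day 7, 2 of 32 were higher in the digested sample and 0 lower, against 11.4% of all past 2-fold either way. They read Pik3r1, the regulatory subunit of PI 3-kinase (log2 1.41), and the immediate early gene Fos (log2 1.23). The other probe set of Pik3r1 gave 0.88, and those of Fos gave 0.06 and -0.15. In the undigested samples 1 was higher at day 7, of the Src family kinase Fyn (log2 1.38), and 4 were lower, of Gap43, Pik3r1, Fos and Jun. Together these were 5 of 32, against 13.3% of all. Here the other probe set of Pik3r1 gave -0.93, and those of Fos gave -0.54 and 0.48. In the digested samples 0 were higher and 1 was lower, of Gap43, a PKC substrate of growing axons (log2 -1.52), against 8.07% of all. Calm2 and Calm3 both code for calmodulin. Calm2 had signals of 32537, 42181, 52445 and 35454, and Calm3 had 5602, 5862, 3878 and 7745. For day 7 digestion they pointed opposite ways, at -0.56 and 1.00.

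The RefSeq promoter table (GRCr8) held a window for 23 of the 27 genes. The 250 bases before each start were searched on both strands for the cyclic AMP response element, the site of CREB, a known target of PKA and Camk4. Its core, TGACG, stood in 7 of 23 member windows (30.4%) and in 18.2% of all 33469 windows of that length in the table. The full palindrome TGACGTCA, which holds the core on both strands, stood in 1 member window (4.35%), that of Pak1, and in 1.59% of all. The GC box GGGCGG stood in 17 of 23 (73.9%) and in 30.5% of all. A match describes letters only, and the shares of all windows were not matched for GC content or for the genes on the array. Shown are Pak1, the member with the full element, whose analysed probe set was lower at day 7 in both states, Pnck, the member with the largest difference, and Mapk8ip2, the cascade gene with the largest mean day difference in the undigested samples. Capitals mark TGACG on either strand, and the windows of Pnck and Mapk8ip2 hold no match. They are Pak1 at chr1:161522200-161522449 (+ strand), Pnck at chrX:156524654-156524903 (- strand) and Mapk8ip2 at chr7:122406100-122406349 (+ strand), with GC contents of 72.4%, 74.4% and 47.2%.
Pak1: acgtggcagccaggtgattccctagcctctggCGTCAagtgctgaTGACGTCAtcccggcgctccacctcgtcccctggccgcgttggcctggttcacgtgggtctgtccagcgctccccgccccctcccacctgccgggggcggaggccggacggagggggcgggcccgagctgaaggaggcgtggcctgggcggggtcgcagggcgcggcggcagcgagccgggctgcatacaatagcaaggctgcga
Pnck: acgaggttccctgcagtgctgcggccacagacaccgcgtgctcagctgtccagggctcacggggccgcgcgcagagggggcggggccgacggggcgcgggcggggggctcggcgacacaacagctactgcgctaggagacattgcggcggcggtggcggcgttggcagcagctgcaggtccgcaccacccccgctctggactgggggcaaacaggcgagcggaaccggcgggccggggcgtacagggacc
Mapk8ip2: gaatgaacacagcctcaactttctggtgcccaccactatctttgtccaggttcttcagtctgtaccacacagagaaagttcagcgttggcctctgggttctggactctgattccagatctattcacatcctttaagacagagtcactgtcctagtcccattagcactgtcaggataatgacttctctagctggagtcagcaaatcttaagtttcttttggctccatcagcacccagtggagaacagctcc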

How the data were processed

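The deposited values are linear signal intensities per probe set, 1 column for each of the 4 arrays. The authors' software and scaling are not given in the sources used here. The mean after trimming 2% at each end was 2515 to 2516 on each array, so the values as deposited already shared a common trimmed mean. Gene names came from the platform's probe table. All 54 member probe sets had a gene identifier in RefSeq, with 0 symbols changed. Arrays were multiplied by 0.927, 1.01, 1.09 and 0.985 (undigested and digested day 1, undigested and digested day 7) to a common median, floored at the 20th percentile and taken to log2. Counts used 2-fold. Fits ran over all 632 analysed probe sets with limma 3.58.1 in R 4.3.3, with Benjamini-Hochberg adjustment; other steps used Python 3.11.15 with pandas 2.3.3 and numpy 2.4.6. The additive limma fit was also run on simulated log2 values with normal noise and known digestion shifts. That simulation began from values already scaled, floored and filtered, and its outcome is not given here.

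Members, families, pathway genes and markers were chosen with earlier results of these data known. Four-array values were given for each member probe set past 2-fold in any comparison without a value at the floor, and for the brightest of each family; other probe sets were given where they help compare those of a gene. Alternatives were other scalings, floors, brightness limits and thresholds, and 1 value per gene; normalisation by cyclic loess was chosen after seeing the data. The number of arrays, 1 per group, limits the precision.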

Additional observations from a re-analysis of the deposited data

How the results depend on the processing

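No paired analysis was possible because each group holds 1 array, and for the same reason no replicate could be left out. Counts of member probe sets past 2-fold rested on dim probe sets. Among the 316 brightest probe sets (26 members), digestion at day 1, digestion at day 7 and day in digested samples each gave 0, against 0%, 3.8% and 3.48% of all 316. Without the brightness limit (54 members) the counts were 2 and 6 for digestion at day 1 and day 7, against 16.5% and 21.6% of all 1263, 4 and 8 for day in undigested and digested samples, against 22.5% and 19.2%, and 1 for the same direction in both digestion pairs and in both day pairs, against 3.48% and 3.64%. At 1.5-fold they were 2 and 11 for digestion, against 11.6% and 27.8% of all 632, 10 and 7 for day in undigested and digested samples, against 37.2% and 23.7%, 1 for both digestion pairs, against 2.53%, and 2 for both day pairs, against 9.18%. At 3-fold digestion at day 7 and day in digested samples each gave 1, against 3.96% and 2.85%. With 1 value for each of 23 genes the counts were 0 and 1 for digestion, against 3.89% and 12.4% of 386 genes, and 3 for day in digested samples, against 8.55%, where the 3 were Pnck, Camk4 and Pak1. Digestion at day 7 gave 1 in the values as deposited, 2 after quantile normalisation and 2 after cyclic loess, against 11.6%, 11.1% and 11.7%. The additive limma fit gave 0 members an adjusted p under 0.05 in each of its 6 alternatives. Of the 164 log2 differences of single members, 0 moved by more than the SD between probe sets of a gene under either scaling. For the values as deposited this was fixed in advance. Without the scaling to a common median, all differences of a comparison shift alike, by less than that SD. Signs of small differences did turn. Under each change of floor 2 moved by more than the SD. Those 2 were of Pnck, from -3.15 to -2.12 for digestion at day 7 and from -2.84 to -1.81 for day in digested samples at the floor of the 40th percentile, and to -2.52 and -2.24 with an offset. The causes of these changes were not tested.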
